A study of Mus musculus with 2 samples.

Results

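A set of 7 genes for matrix metalloproteinases (MMPs), *Mmp2*, *Mmp3*, *Mmp8*, *Mmp9*, *Mmp12*, *Mmp14* and *Mmp19*, and 3 genes for their tissue inhibitors, *Timp1*, *Timp2* and *Timp3*, were taken by symbol from the 32285 genes in the data. All 10 had UMIs in both libraries. Their expression was read in single mononuclear cells of injured quadriceps at 1 day and at 3 days after injection of BaCl2, a salt that kills myofibers. Both days used male *WT* mice, aged 14 weeks, and the labels name no further allele or agent. Each day had 1 library, prepared from the pooled cells of several mice, and no other library was used. There are therefore no replicates, and no test or p-value is given. Cells were released with collagenase and dispase, spun on a density gradient, sorted on light scatter and cryopreserved, so myofibers are not among them.

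MMPs are zinc-dependent proteases that cut collagens, laminins, elastin and other proteins of the extracellular matrix (ECM), and most are secreted as inactive proenzymes. TIMPs bind the active site of MMPs and block it. TIMP-2 has a second role, since a complex of TIMP-2 with the membrane-bound MMP-14 holds the MMP-2 proenzyme at the cell surface, where a free MMP-14 cleaves it. In injured muscle, neutrophils and monocytes bring their own MMPs, whereas fibro/adipogenic progenitors (FAPs) make most of the ECM and much of the enzyme that remodels it.

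All barcodes together held 74852240 UMIs in the library of day 1 and 102565783 in that of day 3. Cells were taken as the 7367 (day 1) and 6640 (day 3) barcodes richest in UMIs, and 6735 and 4627 of them passed the limits on UMIs, genes and mitochondrial UMIs. The mitochondrial limit of 7.5% removed 7.02% of the barcodes on day 1 and 30.3% on day 3. Cells kept had a median of 9389 UMIs on day 1 and 14548 on day 3, and no cell barcode was shared. The list of possible barcodes held 737280 sequences on day 1 and 6794880 on day 3, so the library chemistry may differ and cannot be told apart from the day.

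Clustering of both libraries gave 15 clusters, named "-like" by lists of markers. The 10 genes described here were left out of the genes used for clustering. Monocyte/macrophage-like cells were 52.1% of the cells on day 1 (3510 cells) and 60.8% on day 3 (2813 cells), and all 16 markers of their list had UMIs in them. Neutrophil-like cells were 30.8% (2076 cells) and 5.51% (255 cells), and fibroblast/FAP-like cells were 9.80% (660 cells) and 18.3% (849 cells). Endothelial-like cells numbered 62 and 28, satellite cell/myoblast-like cells 6 and 202, and T/NK-like cells, not described further, 11 and 43. The share of neutrophil-like cells depends on the limits: the barcode taken last had 527 UMIs on day 1, where the minimum of 1000 then applied, and 1302 on day 3, near the median of 1620 of these cells. At a mitochondrial limit of 15% they were 2203 of 6865 cells on day 1 and 564 of 5197 on day 3. Of those 564 cells, 322 lay in 1 cluster with a median of 6349 UMIs on day 3 and a mean of 9.89% mitochondrial UMIs. The other neutrophil-like clusters of that setting, led by *Il23a* and *Retnlg*, had medians of 1664.5 and 1581.5 UMIs on day 3. The name of the 322 cells is therefore uncertain.

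A further cluster of 410 and 437 cells was led by *H2-Eb1* and *H2-Aa*, genes of MHC class II, and scored highest for the dendritic cell list, of which 4 of 12 markers were raised. The markers of monocytes/macrophages were nevertheless more abundant in it, with 5016 CPM on day 1 and 6812 CPM on day 3 summed over 16 genes (*C1qb* at 808 and 1261 CPM), against 636 and 504.4 CPM for the dendritic list (*Cd209a* at 182 and 241 CPM). Sums of 2 lists depend on how abundant their genes are, so they do not rank the names. In monocyte/macrophage-like cells the dendritic list summed to only 6.45 and 7.04 CPM, and the monocyte/macrophage list to 7074 and 11966 CPM. The cluster thus held markers of both lists, was given no cell type name and is called the *H2-Eb1*-led cluster. Scored cell by cell over all clusters, only 182 and 248 cells were highest for the dendritic list.

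Most clusters came largely from 1 library, so a cluster and its library cannot be told apart. Monocyte/macrophage-like cells of day 1 lay in the *Ppbp*-led (1479 cells), *Serpinb2*-led (1410) and *Ifitm6*-led clusters, and those of day 3 in the *Gpnmb*-led (1160), *Ifi213*-led (901) and *Plac8*-led (370) clusters, with the rest mostly in 1 cluster not reported here. Fibroblast/FAP-like cells lay in the *Il1rl1*-led cluster on day 1 (631 cells) and in the *Sfrp2*-led cluster on day 3 (840 cells). Neutrophil-like cells shared the *Retnlg*-led and *Il23a*-led clusters on both days.

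Several groups held traces of other cells. Neutrophil-like cells had a median of 2156 UMIs on day 1 and 1620 on day 3, and the share of their UMIs estimated as ambient RNA was 1.95% on day 1 and 24.8% on day 3. That estimate counts all RNA of certain fibroblast genes as ambient. On day 3 it gave 74.9 CPM of *Timp1* and 16.6 CPM of *Timp3*, above the 46.3 and 1.45 CPM measured, so it is too high for these genes. All 10 markers of the fibroblast/FAP list had UMIs in neutrophil-like cells on day 3, at a summed level of 1515 CPM led by *Col3a1* at 592 CPM, against 126 CPM on day 1. The 16 monocyte/macrophage markers summed to 419.9 CPM on day 1 and 3288 CPM on day 3 in these cells, and their own 11 neutrophil markers to 93501 and 31128 CPM. Endothelial-like cells of day 1 had an ambient share of 18.7% and a summed level of hemoglobin and *Alas2* UMIs of 3356 CPM. Fibroblast/FAP-like cells of day 1 had 974 CPM summed over 6 tenocyte markers, mostly *Thbs4*. Levels of the 10 genes in these groups were read beside those values, and the part of ambient RNA in each was not tested except where a value is given.

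A level is the number of UMIs of a gene per 1000000 UMIs (CPM), after adding up all cells of a group. Ranges in parentheses after a CPM are 95% Poisson intervals and those after a share are Clopper-Pearson intervals. These intervals hold only the error of counting. Mice, libraries and the uneven spread of UMIs among cells do not enter them, so they are too narrow where few cells hold most UMIs. A difference between the days is a log2 ratio, the CPM of day 3 over that of day 1, and is called past 2-fold when the gene had at least 50 UMIs over both days in those cells. UMIs carry 1 tag near the 3-prime end of a transcript, so no level is divided by gene length.

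*Mmp12*, *Mmp3* and *Mmp8* lie in that order on 1 strand of a single stretch of chromosome 9 (GRCm38), at chr9:7344381-7369499, chr9:7445822-7455975 and chr9:7558456-7568485. The other 7 genes lie elsewhere, *Mmp2* at chr8:92827291-92853420, *Mmp9* at chr2:164940780-164955850, *Mmp14* at chr14:54431612-54445364 and *Mmp19* at chr10:128790910-128800824. The inhibitors lie at chrX:20870166-20874735 (*Timp1*), chr11:118301069-118355740 (*Timp2*, minus strand) and chr10:86300372-86349506 (*Timp3*). The neighbours on chromosome 9 differed in the cells that held their UMIs, as described below, and the 250 bases before their RefSeq starts are shown for comparison (GRCm38.p6, plus strand, 5′ to 3′). The windows span chr9:7344147-7344396, chr9:7445572-7445821 and chr9:7558179-7558428. Capitals mark matches to the AP-1 motif TGANTCA or to TATAAA on either strand, and the motifs share no bases here.
Mmp12: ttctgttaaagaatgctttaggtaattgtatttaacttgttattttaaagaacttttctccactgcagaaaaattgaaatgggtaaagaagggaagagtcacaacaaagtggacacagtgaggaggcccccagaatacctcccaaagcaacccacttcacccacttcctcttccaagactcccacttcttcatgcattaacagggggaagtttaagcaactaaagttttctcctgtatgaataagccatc
Mmp3: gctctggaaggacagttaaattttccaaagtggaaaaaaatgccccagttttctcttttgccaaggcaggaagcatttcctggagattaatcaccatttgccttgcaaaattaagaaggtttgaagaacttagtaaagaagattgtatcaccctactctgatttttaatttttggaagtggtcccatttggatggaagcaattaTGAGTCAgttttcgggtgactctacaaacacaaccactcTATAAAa
Mmp8: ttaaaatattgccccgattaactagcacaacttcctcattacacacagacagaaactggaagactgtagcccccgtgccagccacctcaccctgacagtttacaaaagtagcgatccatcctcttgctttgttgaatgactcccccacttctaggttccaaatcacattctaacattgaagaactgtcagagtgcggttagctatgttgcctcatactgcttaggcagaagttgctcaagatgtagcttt
Of the 3 windows, that of *Mmp3* holds both motifs, with first bases at -46 (AP-1) and -7 (TATAAA) from the start. The windows of the other two hold neither, although a second listed start of *Mmp12* has 1 AP-1 match at -44. Of 32851 windows of the same length, 6.75% hold TGANTCA and 12.4% hold TATAAA. RefSeq windows were matched for 7 of the 10 genes, and a match describes letters only.

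Over all cells, the genes differed in direction between the days. *Mmp9*, *Mmp3*, *Mmp19* and *Timp1* were lower in day 3 quadriceps past 2-fold, whereas *Timp2* and *Mmp12* were higher, and *Mmp2*, *Mmp8*, *Mmp14* and *Timp3* were within 2-fold. The median log2 ratio of all 14133 genes with at least 50 UMIs was 0.46, not 0, and 27.8% of them were at least 2-fold higher and 5.63% at least 2-fold lower on day 3. The median over the 10 genes was 0.06. Relative to the median of all genes, *Mmp2*, *Mmp14* and *Timp3* therefore differed by less than their log2 ratios of 0.89, 0.81 and 0.65 state. *Mmp12*, with a log2 ratio of 1.26, was at 0.79 relative to that median and no longer past 2-fold.

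The largest difference over all cells was that of *Mmp9*, which encodes gelatinase B, an enzyme stored in neutrophil granules. Its level was 143 CPM (140.1 to 145.7) on day 1 and 8.78 CPM (8.16 to 9.44) on day 3, a log2 ratio of -4.02. *Mmp19* was at 147 CPM on day 1 and 35.7 CPM on day 3, and *Timp1* at 662 CPM and 279 CPM. *Timp2* was at 96.2 CPM on day 1 and 481 CPM on day 3. On day 1 *Timp1* was thus the inhibitor with the most UMIs (47116 against 6841 for *Timp2*), and on day 3 *Timp2* was, with 40462 against 23491.

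**Figure D1:**
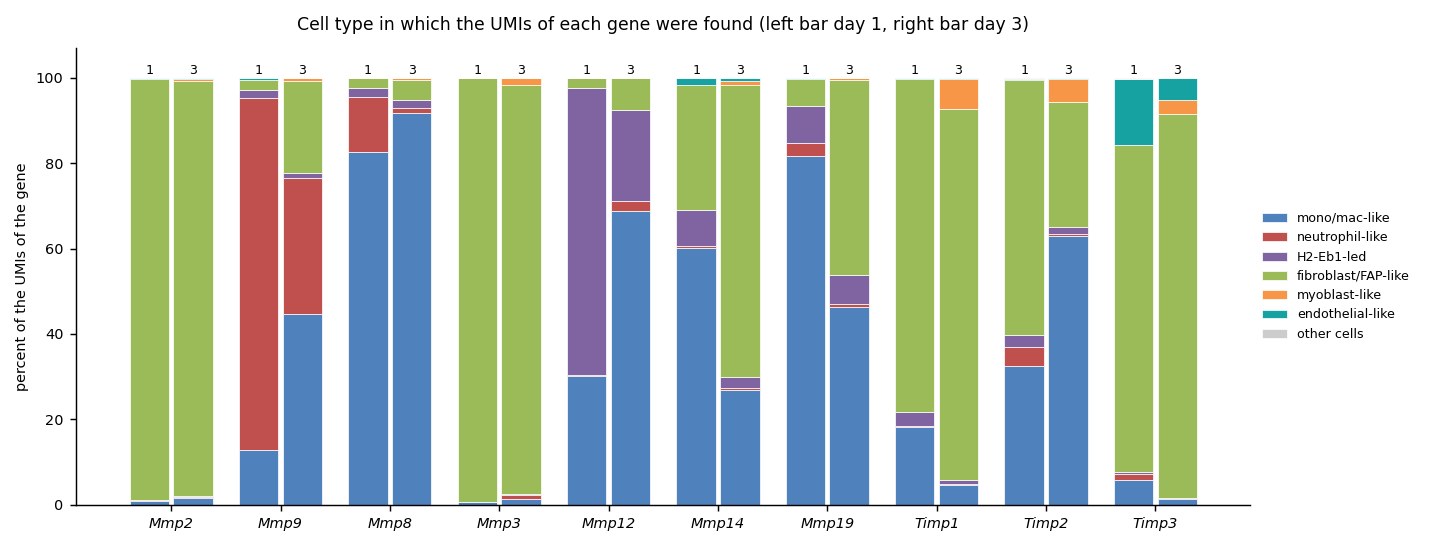
Percent of the UMIs of each gene (vertical axis) found in each cell type, with day 1 in the left bar and day 3 in the right bar of each pair. *Mmp2*, *Mmp3*, *Timp1* and *Timp3* came mostly from fibroblast/FAP-like cells on both days, whereas the leading cell type of *Mmp14* and *Timp2* differed between the days.

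The cells that held these UMIs differed from gene to gene, as the bars of cell types show. Fibroblast/FAP-like cells held 98.6% of *Mmp2* UMIs on day 1 and 97.3% on day 3, and 99.2% and 95.8% of *Mmp3* UMIs. They also held 78.2% and 86.9% of *Timp1* and 76.6% and 89.9% of *Timp3*. *Mmp8* came from monocyte/macrophage-like cells on both days, with 82.6% and 91.7% of its UMIs. For other genes the shares differed between the days. Neutrophil-like cells held 82.4% of *Mmp9* UMIs on day 1 and 31.8% on day 3, when monocyte/macrophage-like cells held 44.7%. With a mitochondrial limit of 15% in place of 7.5%, these groups held 37.2% and 39.5% on day 3, closer to each other and in the same order. The first of these values includes the 322 cells of uncertain name. With cells named by marker score they held 29.6% and 19.6%, the opposite order. The neutrophil-like share of day 1 was 84.2% under both settings. When barcodes under 10% of the 99th percentile of UMIs were left out, it was 40.8%, against 42.9% in monocyte/macrophage-like cells. On day 3 these shares were 0.412% and 64.1% under that setting. *Mmp12* UMIs were mostly in the *H2-Eb1*-led cluster on day 1 (67.3%), which held both monocyte/macrophage and dendritic markers, and in monocyte/macrophage-like cells on day 3 (68.7%). With cells named by marker score, those of the dendritic list held 6.95% on day 1, so a different cell type is not shown. *Mmp14* UMIs were mostly in monocyte/macrophage-like cells on day 1 (60.2%) and in fibroblast/FAP-like cells on day 3 (68.3%). *Timp2* had the opposite order, with fibroblast/FAP-like cells first on day 1 (59.7%) and monocyte/macrophage-like cells first on day 3 (63.0%).

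**Figure D2:**
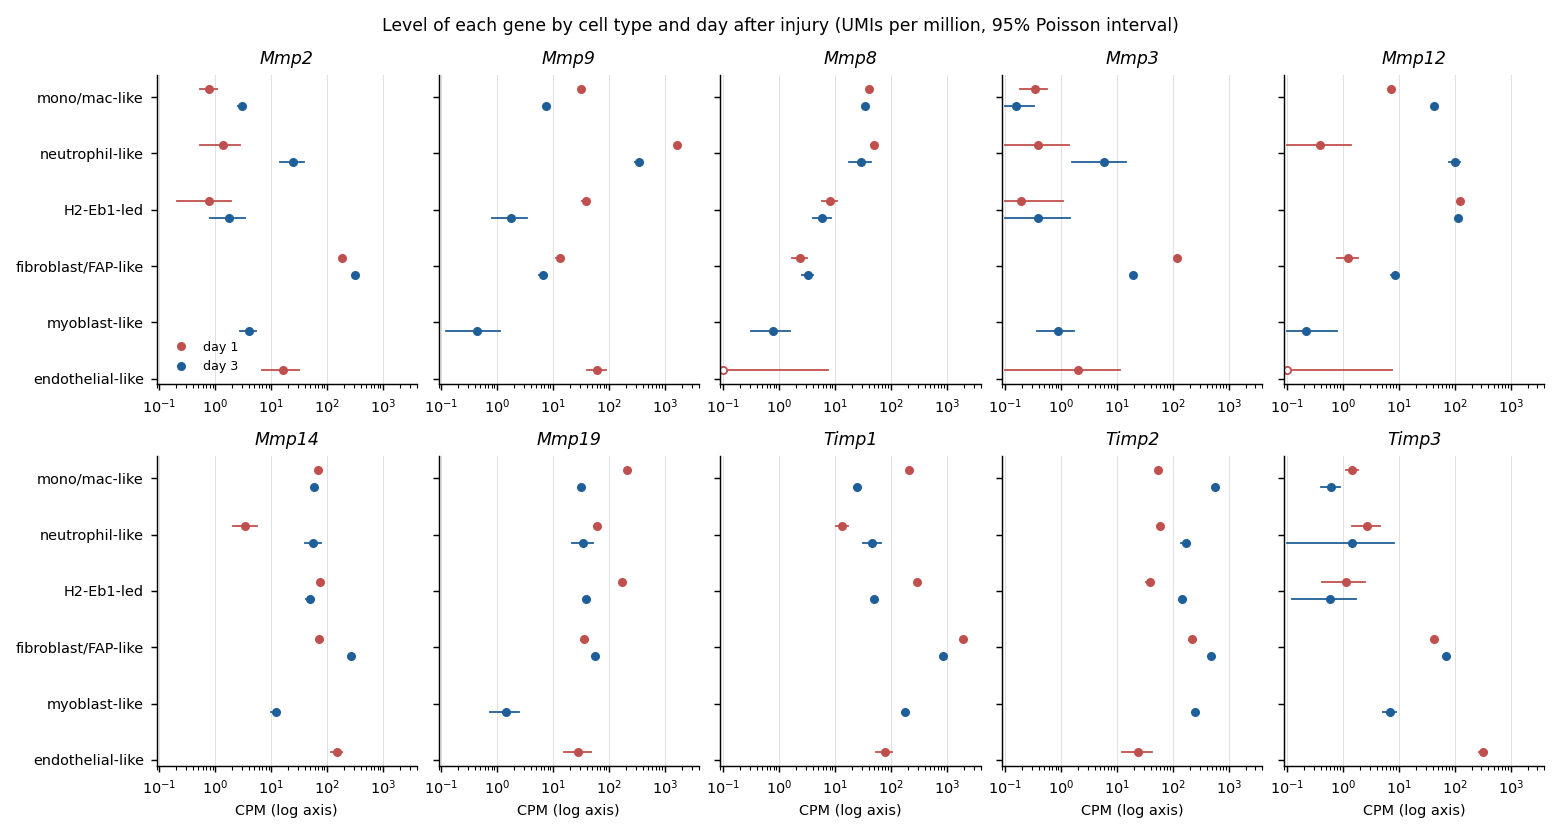
Level of each gene in CPM (horizontal log axis) by cell type, for groups of at least 50 cells, on day 1 (red) and day 3 (blue), with lines for the 95% Poisson interval. An open point at the left edge stands for 0 UMIs. *Mmp9* reached 1623 CPM in neutrophil-like cells of day 1 and *Timp1* reached 1951 CPM in fibroblast/FAP-like cells of day 1, the highest levels shown.

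Among the gelatinases, *Mmp9* was highest in neutrophil-like cells on both days. Its level there was 1623 CPM (1588 to 1658) on day 1 and 340.1 CPM (298 to 386) on day 3, a log2 ratio of -2.25. The *Retnlg*-led and *Il23a*-led clusters of neutrophil-like cells were close to each other on each day, with 1701 and 1567 CPM on day 1 and 349 and 333 CPM on day 3. On day 1, 86.8% of the neutrophil-like cells had a *Mmp9* UMI, against 9.39% of the fibroblast/FAP-like cells, which had a median of 27648.5 UMIs. At 1000 UMIs per cell these shares were 70.7% and 0.881%. On day 3 the share among neutrophil-like cells was 49.0% (42.7 to 55.3), and at 1000 UMIs it was 36.3%.

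The cells read on day 3, whose barcodes stopped at 1302 UMIs, included fewer neutrophil-like cells, with a lower level of *Mmp9* in them. That level depended on the settings. At the mitochondrial limit of 15%, *Mmp9* was at 1514 CPM on day 1 and 105 CPM on day 3, a log2 ratio of -3.84, and 564 cells of day 3 had the name. Of these, 322 lay in a cluster led by *Slfn4* and *Mmp9*, with *mt-Co3* among its leading genes. These are the cells of uncertain name given above, so the values at this limit may not be those of neutrophils alone. With cells named by marker score the levels were 1208 and 544 CPM, a log2 ratio of -1.15. With barcodes under 10% of the 99th percentile of UMIs left out, they were 1445 and 7.36 CPM. The value of day 3 then rested on 2 UMIs among 16 cells, beside 7.10 CPM in monocyte/macrophage-like cells. Neutrophil markers were also lower in the neutrophil-like cells of day 3 as first clustered, at 31128 CPM against 93501 CPM on day 1. Monocyte/macrophage markers were higher there and the ambient share was 24.8%. Their part in the *Mmp9* level was not tested. With the levels of day 3 in each cell type and the UMI shares of cell types of day 1, *Mmp9* would be at 30.9 CPM. With the levels of day 1 and the shares of day 3 it would be at 36.7 CPM. Both lie between the measured 143 and 8.78 CPM. For the 8 genes other than *Mmp9* and *Mmp8*, each such value lay closer to the day that gave the levels than to the other. For *Timp2*, the levels of day 3 gave 485 CPM and those of day 1 gave 103 CPM, and for *Timp1* 246 and 713 CPM.

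*Mmp9* in monocyte/macrophage-like cells was at 31.6 CPM on day 1 and 7.40 CPM on day 3. On day 1, 89 of the 3510 cells had at least 5 *Mmp9* UMIs and held 67.3% of them, and 66 of these 89 cells were among those with the highest doublet scores. Genes leading these cells were the neutrophil genes *Retnlg*, *S100a9* and *Cxcr2*. Without the cells of high doublet score the log2 ratio was -0.84 in place of -2.09, which is no longer past 2-fold. On day 3 the 12 cells with at least 5 UMIs held 48.8% of the *Mmp9* UMIs and were led by *Ctsk*, *Dcstamp*, *Acp5* and *Atp6v0d2*, genes known from osteoclasts and fused macrophages. Only 1 of the 12 had a high doublet score. Here and below, genes leading such cells were chosen after their values were seen. In the *H2-Eb1*-led cluster *Mmp9* was at 38.5 CPM on day 1 and 1.78 CPM on day 3, and 12 of the 16 cells with at least 5 UMIs on day 1 had a high doublet score.

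*Mmp2*, which encodes gelatinase A, was read almost wholly in fibroblast/FAP-like cells. Its level there was 188 CPM (182 to 194) on day 1 and 317 CPM (310.2 to 324) on day 3. The log2 ratio was 0.75, within 2-fold, against a median of 0.30 over all genes in these cells. A *Mmp2* UMI was found in 85.5% and 92.8% of fibroblast/FAP-like cells, and in 0.337% and 1.57% of neutrophil-like cells. In monocyte/macrophage-like cells the level was 0.779 CPM on day 1 and 3.01 CPM on day 3. The ambient RNA alone was estimated to give 1.04 and 2.14 CPM in these cells, so both levels lay near that of background.

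*Mmp8* encodes neutrophil collagenase, which cuts fibrillar collagen. In neutrophil-like cells its level was 50.4 CPM (44.4 to 56.9) on day 1 and 28.9 CPM (17.7 to 44.7) on day 3, and 7.85% and 5.49% of the cells had a UMI. Monocyte/macrophage-like cells had 40.1 CPM (38.2 to 42.1) and 33.8 CPM (32.1 to 35.5), below the neutrophil-like cells on day 1 and within their interval on day 3. A *Mmp8* UMI was found in 20.5% of the monocyte/macrophage-like cells on day 1 and in 25.9% on day 3. Fibroblast/FAP-like cells had 3.79% and 5.18%, with median depths of 27648.5 and 25454 UMIs. At 1000 UMIs per cell the neutrophil-like share of day 1 was 4.13%, above the 3.54% of the monocyte/macrophage-like cells. On day 3 the neutrophil-like share at that depth was 2.91%, still below that of the monocyte/macrophage-like cells.

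**Figure D3:**
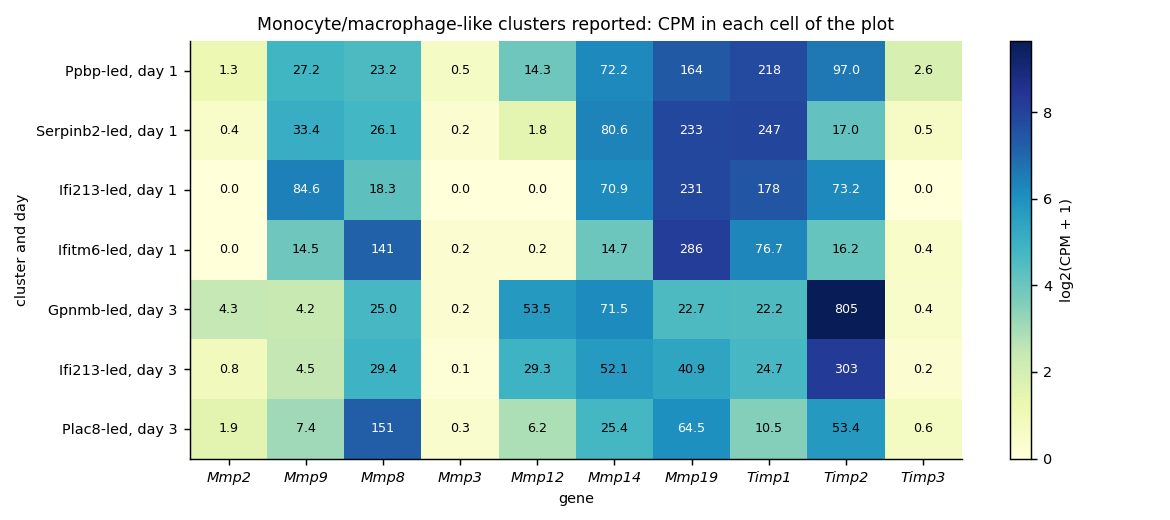
CPM of the 10 genes (columns) in the monocyte/macrophage-like clusters reported, each with at least 50 cells on the day (rows), coloured by log2(CPM + 1). *Mmp8* stood out in the *Ifitm6*-led and *Plac8*-led clusters (141 and 151 CPM), and *Timp2* in the *Gpnmb*-led cluster of day 3 (805 CPM).

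Within the monocyte/macrophage-like cells, *Mmp8* UMIs were most frequent in 1 cluster on each day. On day 1 the *Ifitm6*-led cluster, with *Plac8* among its leading genes, had 141 CPM (130.5 to 151), and the *Ppbp*-led and *Serpinb2*-led clusters had 23.2 and 26.1 CPM. On day 3 the *Plac8*-led cluster, with *Ly6c2* among its leading genes, had 151 CPM (138 to 165). The *Gpnmb*-led and *Ifi213*-led clusters of day 3 had 25.03 and 29.4 CPM. *Ly6c2* and *Plac8* are known from monocytes that have recently left the blood. *Mmp8* was itself among the leading genes of both clusters, although it was not used to form them. On day 1, 77 cells (2.19%) had at least 5 *Mmp8* UMIs and held 36.9% of them. Of these, 52 lay in the *Ifitm6*-led cluster, 9 had a high doublet score, and *Mgst1* and *Lcn2* were among their leading genes. On day 3, 58 cells (2.06%) held 25.6%, and 25 lay in the *Plac8*-led cluster. The neutrophil genes *S100a9*, *Lcn2* and *S100a8* led these 58 cells, with *S100a9* at 1096 CPM against 40.7 CPM in the other monocyte/macrophage-like cells and *S100a8* at 3101 against 234 CPM. Only 3 of them had a high doublet score, and the part of neutrophil RNA in their *Mmp8* was not tested.

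*Mmp3* encodes stromelysin-1, which cuts many matrix proteins and can activate other MMP proenzymes. In fibroblast/FAP-like cells it was at 118 CPM (114 to 124) on day 1 and 19.6 CPM (17.9 to 21.5) on day 3, a log2 ratio of -2.59. The share of fibroblast/FAP-like cells with a UMI was 17.3% on day 1 and 13.3% on day 3, whereas among neutrophil-like cells it was 0.0963% and 0.784%. The share of cells thus differed less than the level. On day 1, 65 cells (9.85%) with at least 5 UMIs held 96.2% of the *Mmp3* UMIs, with up to 271 in a single cell, and were led by *Cpxm1* and *Eln*. On day 3, 30 cells held 67.9% with at most 48 UMIs in a cell, and were led by *Saa3* and *Cxcl13*.

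**Figure D4:**
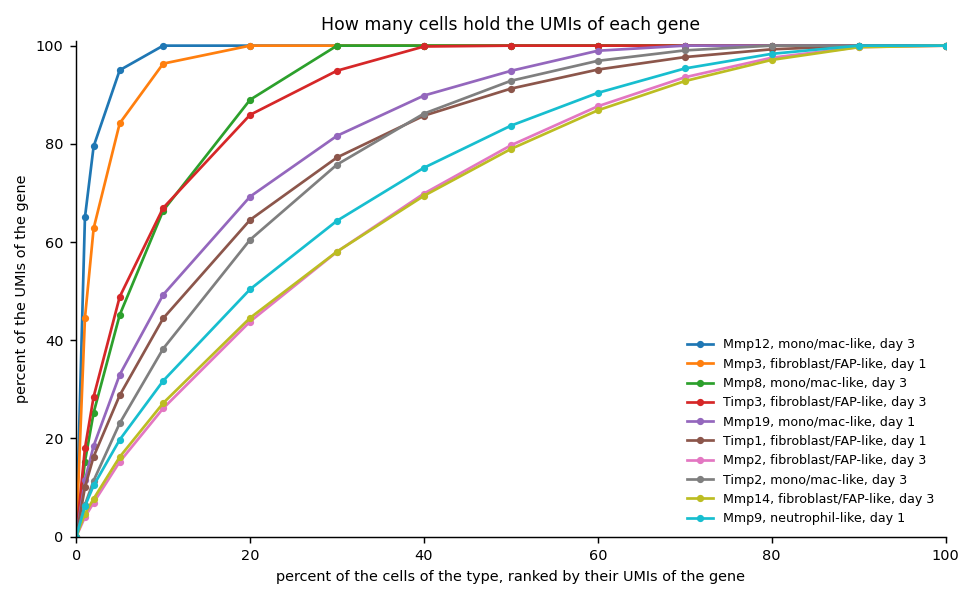
Percent of the UMIs of a gene (vertical axis) held by a given percent of the cells of 1 type and day, ranked from the cell with most UMIs (horizontal axis). In monocyte/macrophage-like cells of day 3, 13 cells held 50% of the *Mmp12* UMIs, whereas 24.3% of fibroblast/FAP-like cells of day 3 held 50% of the *Mmp2* UMIs.

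*Mmp12* encodes macrophage metalloelastase, and few cells held its UMIs. In monocyte/macrophage-like cells it was at 7.18 CPM (6.38 to 8.05) on day 1 and 42.6 CPM (40.8 to 44.6) on day 3, a log2 ratio of 2.57. On day 1 a single cell held 153 of the 295 UMIs. Without it, a setting chosen after seeing the data, the level was 3.46 CPM and the log2 ratio 3.62. That ratio kept the top cell of day 3, without which the level of day 3 was 34.0 CPM. A UMI was found in 0.798% of these cells on day 1 and in 8.11% on day 3, against 0.303% and 3.18% of fibroblast/FAP-like cells. Of the 2813 cells of day 3, 80 (2.84%) had at least 5 UMIs and held 86.0% of them, with up to 386 in 1 cell. As the curves of ranked cells show, 13 cells held 50%. The 80 cells had a median of 20766.5 UMIs against 13692 in the other cells, 2 of them had a high doublet score, and their leading genes were *Mmp13*, *Hmga2* and *Atp6v0d2*. By cluster, the level on day 3 was 53.5 CPM in the *Gpnmb*-led, 29.3 CPM in the *Ifi213*-led and 6.20 CPM in the *Plac8*-led cluster.

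By level, *Mmp12* was highest in the *H2-Eb1*-led cluster on day 1, at 126 CPM (117 to 136), and was at 116 CPM (107.3 to 126) on day 3. These levels differed by less than their intervals. They too came from few cells, 13 cells holding 99.4% of the UMIs on day 1 and 20 cells 91.5% on day 3. The cells of day 3 were led by *Dcstamp* and *Ear2*. In neutrophil-like cells 2 UMIs were found on day 1 and 69 UMIs, in 3 cells, on day 3, a log2 ratio of 7.70 (6.10 to 11.08). A single cell held 40 of the 69 UMIs, and the interval does not include such spread between cells. In fibroblast/FAP-like cells the level was 1.22 CPM on day 1 and 8.40 CPM on day 3, and 10 cells held 82.8% of the UMIs of day 3. Those 10 cells were led by macrophage genes such as *Lyz1* and *Itgax*, and 4 of them had a high doublet score.

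*Mmp19*, a secreted MMP that cuts basement membrane proteins, was foremost a gene of monocyte/macrophage-like cells on day 1. Its level there was 208 CPM (204 to 213) on day 1 and 31.3 CPM (29.6 to 32.9) on day 3, a log2 ratio of -2.74. A UMI was found in 62.5% of these cells on day 1 and in 28.3% on day 3, and at 1000 UMIs per cell in 16.4% and 3.27%. Neutrophil-like cells had 8.33% and 4.71%, and at 1000 UMIs 3.91% and 2.15%. Fibroblast/FAP-like cells had 41.1% and 66.5%, and at 1000 UMIs 3.23% and 5.67%. All 4 monocyte/macrophage-like clusters of day 1 were high, from 164 CPM in the *Ppbp*-led to 286 CPM in the *Ifitm6*-led cluster. The 3 clusters of day 3 reported lay between 22.7 CPM and 64.5 CPM, below every cluster of day 1. The *H2-Eb1*-led cluster had 174 CPM on day 1 and 39.4 CPM on day 3, and neutrophil-like cells 60.04 and 34.7 CPM.

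In fibroblast/FAP-like cells *Mmp19* had the opposite sign. It was at 35.8 CPM (33.1 to 38.6) on day 1 and 56.6 CPM (53.7 to 59.7) on day 3, a log2 ratio of 0.66 within 2-fold. This was the highest level of day 3, and the neutrophil-like cells overlapped in interval both with the *H2-Eb1*-led cluster above them and with the monocyte/macrophage-like cells below them. On day 1, 35 of these cells held 39.2% of the UMIs, 19 of the 35 had a high doublet score, and macrophage genes such as *Ppbp* and *Clec4n* led them. On day 3 the cells with most *Mmp19* were led by *Oasl1* and *Cd74*, and 5 of 58 had a high doublet score.

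*Mmp14* encodes the membrane-bound MMP-14. In fibroblast/FAP-like cells its level was 71.6 CPM (67.9 to 75.6) on day 1 and 271 CPM (264 to 277) on day 3, a log2 ratio of 1.92. A UMI was found in 72.9% of these cells on day 1 and in 92.6% on day 3, and at 1000 UMIs per cell in 7.20% and 23.3%. Neutrophil-like cells had 0.626% and 4.31%. The 561 fibroblast/FAP-like cells of day 3 with at least 5 UMIs had a median of 29775 UMIs, against 16119.5 in the rest, and were led by cell cycle genes such as *Mxd3* and *Prc1* and by *Tnc*. On day 1, 75 cells had at least 5 UMIs, 19 of them had a high doublet score, and the macrophage genes *Ms4a7* and *C1qb* led them.

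In monocyte/macrophage-like cells *Mmp14* was at 67.8 CPM on day 1 and 58.2 CPM on day 3, within 2-fold. Its level was lowest in the clusters with most *Mmp8*, at 14.7 CPM in the *Ifitm6*-led cluster of day 1 and 25.4 CPM in the *Plac8*-led cluster of day 3. The other clusters reported had 52.1 to 80.6 CPM. Endothelial-like cells had 150.1 CPM (118 to 188) on day 1, the highest level of that day, above the *H2-Eb1*-led cluster and the fibroblast/FAP-like and monocyte/macrophage-like cells, whose intervals overlapped in turn. They had 203 CPM (155 to 261) among only 28 cells on day 3.

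*Timp1*, an inhibitor with broad action on secreted MMPs, had its highest level in fibroblast/FAP-like cells. It was at 1951 CPM (1931 to 1971) on day 1 and 840.2 CPM (829 to 852) on day 3, a log2 ratio of -1.22. Nearly all of these cells had a UMI on both days (93.2% and 94.7%), and at 1000 UMIs per cell 59.3% and 47.8% did. A single cell of day 1 had 894 *Timp1* UMIs. The 550 fibroblast/FAP-like cells of day 1 with at least 5 UMIs were led by *Thbs4*, at 995 CPM against 11.9 CPM in the others. Tenocyte markers, *Thbs4* among them, summed to 974 CPM on day 1 and 369 CPM on day 3 in fibroblast/FAP-like cells. Their part in the *Timp1* level was not tested. Among neutrophil-like cells 2.79% and 4.71% had a UMI.

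Monocyte/macrophage-like cells showed a larger difference in *Timp1*. The level was 209.6 CPM (205 to 214) on day 1 and 24.7 CPM (23.3 to 26.2) on day 3, a log2 ratio of -3.08. Cells with a UMI were 43.0% on day 1 and 22.9% on day 3. The *Ppbp*-led and *Serpinb2*-led clusters of day 1 had 218 and 247 CPM, above the 76.7 CPM of the *Ifitm6*-led cluster. The clusters of day 3 reported were below that, from 10.5 CPM in the *Plac8*-led to 24.7 CPM in the *Ifi213*-led cluster. Of the cells of day 3, 21 had at least 5 UMIs, and *Sfrp2*, *Col1a2* and *Postn* of fibroblasts led them. Satellite cell/myoblast-like cells, too few on day 1 to describe, had 179 CPM on day 3 with a UMI in 98.5% of the cells, and only 12.2 CPM of *Mmp14*, 6.82 CPM of *Timp3* and 3.96 CPM of *Mmp2*.

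The largest log2 ratio of *Timp2* was that of the monocyte/macrophage-like cells. Its level there was 54.1 CPM (51.9 to 56.4) on day 1 and 572 CPM (565 to 579) on day 3, a log2 ratio of 3.40. The share of cells with a UMI was 18.7% (3.90% at 1000 UMIs) on day 1 and 78.8% (32.6% at 1000 UMIs) on day 3. Among neutrophil-like cells it was 11.2% and 14.5%, and at 1000 UMIs 5.15% and 6.97%. At that depth the neutrophil-like share of day 1 was above the 3.90% of the monocyte/macrophage-like cells. In day 3 quadriceps the *Gpnmb*-led cluster had 805 CPM (793 to 817) and the *Ifi213*-led cluster, led by interferon-responsive genes, 303 CPM. The *Plac8*-led cluster had only 53.4 CPM (45.7 to 62.0), a level like the average of day 1.

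*Timp2* was also unevenly spread among the monocytes/macrophages of day 1. The *Ppbp*-led cluster had 97.0 CPM (92.5 to 102), against 17.05 CPM in the *Serpinb2*-led and 16.2 CPM in the *Ifitm6*-led cluster. The 57 cells of day 1 in the *Ifi213*-led cluster had 73.2 CPM (50.1 to 103). Only 143 cells (4.07%) had at least 5 UMIs, and they held 64.1% of the *Timp2* UMIs. Of these, 125 lay in the *Ppbp*-led cluster, and *Lyve1* and *Ccl8*, known from resident macrophages, led them. On day 3, 51.3% of the cells had at least 5 UMIs, and *Cd5l* and *Gpnmb* were among their leading genes.

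Fibroblast/FAP-like cells had more *Timp2* as well on day 3, with 216 CPM (209.8 to 223) on day 1 and 486 CPM (477 to 495) on day 3. Their log2 ratio was 1.17, and by level they were first on day 1 and second to the monocyte/macrophage-like cells on day 3. The cells of day 3 with at least 5 UMIs were 82.4% of the total, and the macrophage genes *Gpnmb* and *Ms4a7* were among their leading genes. The 16 monocyte/macrophage markers summed to 578 CPM on day 1 and 1564 CPM on day 3 in fibroblast/FAP-like cells. The part of macrophage RNA in their *Timp2* was not tested. On day 1 the cells with most *Timp2* were led by *Pi16* and *Sbsn*, and so were the cells with most *Timp3*. The *H2-Eb1*-led cluster had 38.5 CPM on day 1 and 146 CPM on day 3, and satellite cell/myoblast-like cells of day 3 had 245 CPM with a UMI in 99.5% of the cells.

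*Timp3* encodes the inhibitor that binds to the matrix itself. Endothelial-like cells had the highest level, 320.4 CPM (272 to 374) on day 1 and 338 CPM (275 to 411) among 28 cells on day 3. The intervals of the days overlap. A UMI was found in 71.0% of the endothelial-like cells of day 1 and in 0.337% of neutrophil-like cells. Fibroblast/FAP-like cells had 41.99 CPM (39.1 to 45.0) on day 1 and 71.0 CPM (67.7 to 74.4) on day 3. In them, 54 cells held 60.2% of the UMIs on day 1 and 105 cells held 72.9% on day 3, led on both days by *Pi16* and *Sbsn* among others, genes of adventitial fibroblasts. Monocyte/macrophage-like cells had 1.46 and 0.606 CPM, from 60 and 27 UMIs.

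**Figure D5:**
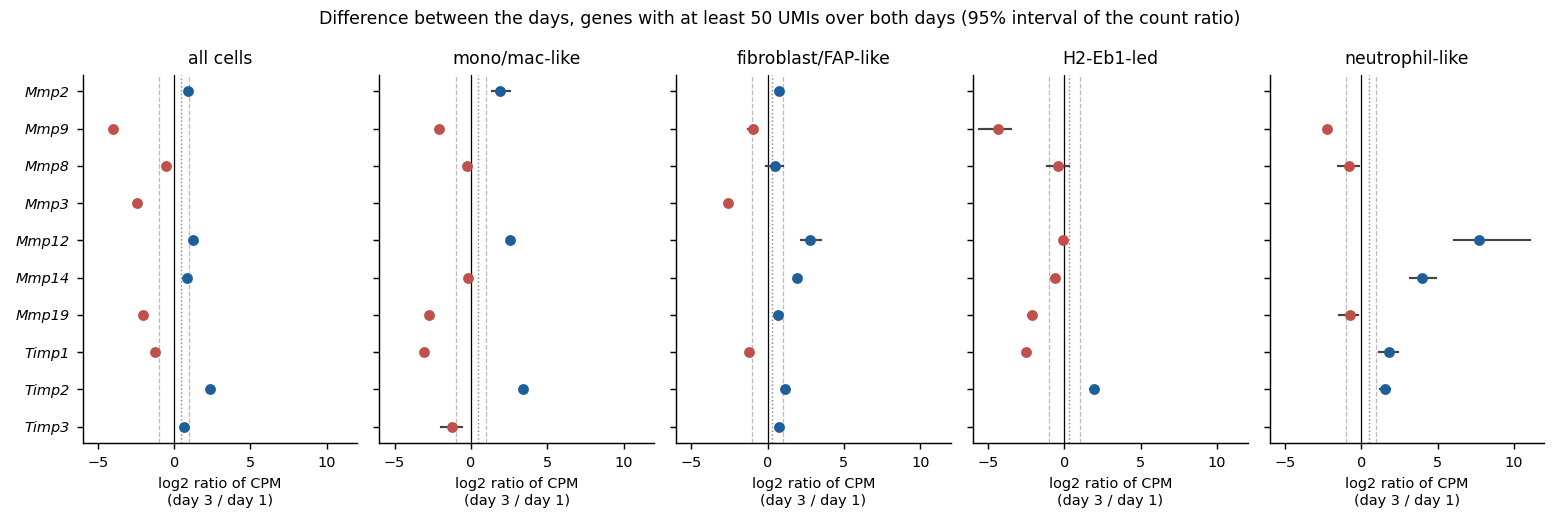
Log2 ratio of CPM, day 3 over day 1 (horizontal axis), for each gene with at least 50 UMIs over both days, in all cells and in 4 cell types, with lines for the 95% interval of the count ratio. Dashed lines mark 2-fold, the dotted line the median of all genes in those cells, and blue or red points a higher or lower level on day 3. *Timp1* was lower on day 3 in 4 of the 5 groups and *Timp2* higher in all 5, but in neutrophil-like cells ambient RNA was estimated at 74.9 CPM for *Timp1* (46.3 CPM measured) and 94.5 CPM for *Timp2* (171 CPM measured) on day 3, and the log2 ratio of *Timp1* was -2.41 with cells named by marker score.

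Counted by cell type, 3 genes were at least 2-fold higher on day 3 in monocyte/macrophage-like cells (*Timp2*, *Mmp12* and *Mmp2*) and 4 were at least 2-fold lower (*Timp1*, *Mmp19*, *Mmp9* and *Timp3*), of 9 with at least 50 UMIs. *Mmp2* is counted here although its levels of 0.779 and 3.01 CPM lay near the ambient estimates of 1.04 and 2.14 CPM. *Timp3* is counted too, although its 0.606 CPM on day 3 lay below an ambient estimate of 1.19 CPM. Without the cell of day 1 with most *Timp3* UMIs, its log2 ratio was -0.84, no longer past 2-fold. Of all 11651 genes, 28.5% were at least 2-fold higher and 5.21% at least 2-fold lower in these cells. The 3 genes higher make up about the share of the background, and the 4 lower exceed it. Without the cells of high doublet score, only *Timp1* and *Mmp19* were still lower past 2-fold.

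In fibroblast/FAP-like cells, *Mmp12*, *Mmp14* and *Timp2* were higher and *Mmp3* and *Timp1* lower past 2-fold, of 10 genes. The background was 23.4% higher and 7.18% lower of 12296 genes. In the *H2-Eb1*-led cluster, of 7 genes only *Timp2* was higher, beside 15.4% of 8506 genes, and *Mmp9*, *Timp1* and *Mmp19* were lower, beside 3.75%.

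In neutrophil-like cells, *Mmp12*, *Mmp14*, *Timp1* and *Timp2* were higher (33.1% of 5727 genes) and *Mmp9* lower (7.96%), of 7 genes. Of these, *Mmp12* rested on 69 UMIs in 3 cells, *Mmp14* on 39 UMIs in 11 cells and *Timp1* on 32 UMIs in 12 cells of day 3. The ambient RNA was estimated to give 74.9 CPM of *Timp1* there, above the measured 46.3 CPM, and 94.5 CPM of *Timp2*, of 171 CPM measured. The monocyte/macrophage markers summed to 3288 CPM in these cells. Without the cells of high doublet score 1 gene was past 2-fold higher in place of 4, and with cells named by marker score 0 were, with log2 ratios of -2.41 for *Timp1* and -0.059 for *Mmp14*. In endothelial-like cells, with 28 cells on day 3, *Timp2* and *Timp1* were higher and none was lower, of 4 genes, beside 7.78% and 13.3% of 2673 genes. At the 15% mitochondrial limit, and without the cells of high doublet score, 0 were higher. With cells named by marker score 3 were lower, and the log2 ratio of *Timp1* was -1.81. As first clustered, endothelial-like cells of day 1 had an ambient estimate of 142 CPM for *Timp1*, above the 77.1 CPM measured. For *Timp2* it was 16.8 CPM, of 24.3 CPM measured.

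The sum of the 7 MMPs was set beside the sum of the 3 TIMPs. In monocyte/macrophage-like cells there were 1.34 MMP UMIs per TIMP UMI on day 1 (1.31 to 1.38) and 0.295 on day 3 (0.288 to 0.303). Fibroblast/FAP-like cells had the opposite order, with 0.195 on day 1 and 0.489 on day 3. In neutrophil-like cells the ratio was 23.3 and 2.70, and the value of day 3 rests on 151 TIMP UMIs. With ambient RNA taken off it was 29.2 and 6.95, with a mitochondrial limit of 15% it was 20.5 and 1.09, and with cells named by marker score it was 11.1 and 8.56. The value of 1.09 includes the 322 cells of uncertain name. The ratio was 1.29 and 1.09 in the *H2-Eb1*-led cluster, where the intervals do not overlap (1.21 to 1.37 and 1.00 to 1.19). Over all cells it was 0.620 and 0.398. The sums are of UMIs, not of active protein.

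Since TIMP-2 and MMP-14 together present the MMP-2 proenzyme, cells with UMIs of more than 1 of these genes were counted. Among fibroblast/FAP-like cells, 70.8% had UMIs of both *Mmp2* and *Timp2* on day 1 and 92.1% on day 3, against 68.6% and 89.3% from the product of the single shares. *Mmp14* and *Timp2* were found together in 62.3% and 92.1%. Among monocyte/macrophage-like cells, *Mmp14* and *Timp2* were found together in 8.75% on day 1 and 31.5% on day 3, against products of 7.14% and 27.8%, and *Mmp2* and *Timp2* in 0.313% and 3.38%, against products of 0.123% and 3.03%. The share with both genes was above the product in each pair given, by the most, relative to it, for the last pair on day 1, with 11 cells. The part of depth in this, which differs between cells, was not tested.

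Genes with the most similar levels were looked for over the 10 groups of cell type and day with at least 50 cells, among 10388 genes. The groups share 2 libraries and differ in depth, so the correlations describe a likeness of pattern only. *Mmp9* was most like *Hdc* (Pearson's r = 0.98), *S100a9* and *Acod1*. *Mmp2* was most like *Serping1* (r = 0.99), *Efemp1* and *Tgfbr3*, and *Mmp3* was most like *Galnt16* (r = 0.98), *Prg4* and *Cxcl14*. *Mmp8* followed *Fam20c* (r = 0.94), *Mmp12* *Spint1* (r = 0.96), *Mmp14* *Evi5l* (r = 0.96) and *Mmp19* *Pxk* (r = 0.94). *Timp1* followed the metallothionein gene *Mt1* (r = 0.92), *Timp2* *Bhlhe41* (r = 0.96) and *Timp3* *Tns2* (r = 0.98). Among the 10 genes themselves, *Mmp2* and *Mmp3* were alike (r = 0.92).

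Other genes of matrix remodeling were read in the same cells. Of the 15 other MMP genes in the data, 8 had at least 50 UMIs, and 7 of these were at least 2-fold higher over all cells, beside the background of 27.8%. *Mmp13*, which encodes the main collagenase of the mouse, was at 0.731 CPM on day 1 and 8.58 CPM on day 3, mostly in monocyte/macrophage-like cells (0.900 and 14.2 CPM). *Mmp27* was likewise at 0.389 and 9.11 CPM in those cells. *Mmp23* was at 14.7 and 149.9 CPM in fibroblast/FAP-like cells. *Mmp25*, which encodes a neutrophil MMP anchored in the membrane, was lower, at 2.80 and 1.15 CPM over all cells. Of the other inhibitors, *Timp4* was at 0.970 CPM on day 1 and 0.214 CPM on day 3, with 69 and 18 UMIs.

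Of 9 genes for activation, anchoring and uptake of MMPs, none was past 2-fold higher over all cells and 3 were lower, beside 27.8% and 5.63% of all genes. *Lcn2*, which encodes a protein that binds MMP-9, was at 259 CPM on day 1 and 32.1 CPM on day 3. *Plaur*, the gene for the urokinase receptor, was at 346 and 67.0 CPM, and *Cd44* was at 810.3 and 368 CPM. *Plau*, the gene for urokinase itself, was higher on day 3 in monocyte/macrophage-like cells, with 14.3 and 60.9 CPM, and lower in fibroblast/FAP-like cells, with 92.5 and 43.7 CPM.

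Of 17 genes for ADAM and ADAMTS proteases, 7 were at least 2-fold higher over all cells and none was lower, beside 27.8% and 5.63% of all genes. In fibroblast/FAP-like cells 9 were higher and none lower, beside 23.4% and 7.18%, led by *Adamts12* (7.995 and 50.5 CPM), *Adamts4* (12.7 and 57.7 CPM) and *Adamts7* (0.847 and 3.21 CPM). The median log2 ratio of this list was 1.204 in these cells, against 0.30 for all genes.

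Of 14 genes for matrix substrates, 9 were at least 2-fold higher in fibroblast/FAP-like cells and none was lower, beside 23.4% and 7.18% of all genes in these cells. *Col3a1* was at 807 CPM on day 1 and 9294 CPM on day 3 in these cells, *Col5a1* at 57.9 and 666 CPM and *Col1a2* at 543 and 6174 CPM. *Fn1*, the gene for fibronectin, was at 520.0 and 1909 CPM in fibroblast/FAP-like cells and at 2822 and 428 CPM in monocyte/macrophage-like cells. *Vcan* in monocyte/macrophage-like cells was at 520.3 and 94.3 CPM. The collagens named also had low levels in monocyte/macrophage-like cells, such as *Col3a1* with 2.12 and 42.04 CPM, and the part of ambient RNA in these was not tested.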

How the data were processed

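The authors deposited unnormalized UMI counts for all listed barcodes of the 10x Genomics 3-prime libraries of quadriceps cells from day 1 and day 3. The submitters' processing notes name Cell Ranger 5.0.0 and mm10, whereas the matrix header names Cell Ranger 4. Barcodes under 1000 UMIs, under 200 genes or above 7.5% mitochondrial UMIs were left out. Both libraries together were normalized with SCTransform (Seurat 5.3.0, sctransform 0.4.2, R 4.3.3), with the cell cycle difference and the mitochondrial share regressed out and 10 PCs, as in the study's methods, but without glmGamPoi. The resolution of 0.8 was chosen here, and small clusters were clustered again. Each cluster was named from 120 markers in 14 lists. A cluster of monocyte/macrophage-like cells, almost all of day 3, enters the totals of its type but is not reported here on its own.

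Levels, intervals and log2 ratios (0.5 added to each UMI count) were computed with Python 3.11.15, pandas 2.3.3, scipy 1.17.1 and numpy 2.4.6. The profile of ambient RNA came from barcodes of 100 UMIs or fewer. For each group, fibroblast or neutrophil genes that it should lack gave the ambient share. Doublets were kept. The automatic threshold of Scrublet (scanpy 1.11.5) marked 2 cells of day 1 and 0 of day 3, too few to have worked, so cells of high doublet score are the 363 and 171 top-scoring cells, a rate of 0.8% per 1000 cells.

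The genes, lists and markers were chosen with earlier results of these data known. Genes named are the 10 described, up to 3 each way per list of matrix genes past 2-fold, the 3 most alike by Pearson's r of log2(CPM + 1), cluster leaders and markers. Others are named as chosen later. On simulated data, the interval of the log2 ratio found the direction of 100% (all cells, 14133 genes), 100% (monocyte/macrophage-like, 11651 genes) and 99.5% (fibroblast/FAP-like, 12296 genes) of 200 changed genes. It held the true ratio for 95.4%, 95.6% and 95.3% of the genes. This checks the computation for counting error only and does not bear on differences between mice, libraries or single cells. Alternatives varied the choice of cells, the mitochondrial limit, doublets, naming, PCs, resolution, the averaging of CPM, scaling, ambient RNA, the UMI minimum and depth.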

Additional observations from a re-analysis of the deposited data

Results flagged for a closer look

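*Timp1* differed in direction between cell types. Its log2 ratio, day 3 over day 1, was 1.80 in neutrophil-like cells, against -3.08 in monocyte/macrophage-like, -1.22 in fibroblast/FAP-like and -2.52 in the *H2-Eb1*-led cluster. With 1 library per day this difference was not tested. The value in neutrophil-like cells rests on 69 UMIs of day 1 and 32 UMIs of day 3, and ambient RNA was estimated to give 74.9 CPM on day 3, more than the 46.3 CPM measured. With cells named by marker score it reversed to -2.41. *Timp1* was also higher in the endothelial-like cells of day 3, at 216 CPM against 77.1 CPM, and reversed there too under that naming (-1.81). Ambient RNA was estimated to give 142 CPM in the endothelial-like cells of day 1, more than the 77.1 CPM measured.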

How the results depend on the processing

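No paired analysis was possible because each day has 1 library and its mice differ. Of the log2 ratios under the alternatives, 361 stayed within their counting interval, 140 moved beyond it without reversing, and 10 reversed. Of the shares of UMIs by cell type, 77 stayed within their interval and 58 moved, among them the *Mmp9* share of monocyte/macrophage-like cells on day 3 (19.6% by marker score to 64.1% with the stricter barcode limit). In addition, all 20 shares of cells with a UMI moved when cells were thinned to 1000 UMIs. *Timp2*, *Mmp12* and *Mmp2* in monocyte/macrophage-like cells kept a higher level on day 3, and *Timp1* and *Mmp19* a lower one, under every alternative run. For *Mmp2* this says little, since its 0.779 CPM of day 1 lay below the ambient estimate of 1.04 CPM. With ambient RNA taken off, nothing of its day 1 level was left, so day 3 could only come out higher.

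Reversed log2 ratios were those of *Mmp8* in monocyte/macrophage-like cells with a mean over cells of CPM (0.10), *Timp3* in monocyte/macrophage-like cells named by marker score (0.71) and *Mmp9* in fibroblast/FAP-like cells with ambient RNA taken off (0.13). In neutrophil-like cells they were *Mmp2* without doublets (-0.72), *Mmp3* at the 15% mitochondrial limit (-0.83) and, named by marker score, *Mmp8* (0.78), *Mmp14* (-0.059) and *Timp1* (-2.41). In endothelial-like cells they were *Mmp2* at 15% (-0.37) and *Timp1* by marker score (-1.81). The cause was not tested.

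Over all cells, 1 gene (*Timp2*, without *Mmp12*) in place of 2 was at least 2-fold higher when ratios were centred on the median of all genes. Without doublets, 2 in place of 4 were lower in monocyte/macrophage-like cells. In neutrophil-like cells, 1 (without doublets), 0 (marker score), 2 (20 PCs) and 2 (mean over cells) in place of 4 were higher, and 3 (marker score) and 3 (centred) in place of 1 were lower. In the *H2-Eb1*-led cluster (by marker score, cells highest for the dendritic list), 2 (marker score) and 2 (no minimum of UMIs) in place of 1 were higher. In endothelial-like cells, 0 (15% limit), 0 (without doublets), 1 (20 PCs) and 1 (resolution of 0.4) in place of 2 were higher. There, 1 (15% limit), 3 (marker score), 2 (20 PCs) and 2 (no minimum) in place of 0 were lower.

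Fibroblast/FAP-like cells gave no value at 20 PCs, since 13 cells of day 1 kept the name. With barcodes under 10% of the 99th percentile of UMIs left out, neutrophil-like cells (16 on day 3) fell under 50 cells. So did endothelial-like cells (41 on day 1), and no log2 ratio is given for either. Levels and shares of *Mmp9* in those neutrophil-like cells are given above. Counts per day limit *Mmp2*, *Mmp3* and *Timp3* outside fibroblast/FAP-like and endothelial-like cells.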
